A study of Mus musculus with 6 samples.

Results

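Lactate and pyruvate are turned into each other by lactate dehydrogenases and are carried across membranes by a small set of transporters, and 9 mouse genes of this machinery are described here. They are the L-lactate dehydrogenase subunit genes Ldhb and Ldha, the D-lactate dehydrogenase gene Ldhd, and the mitochondrial pyruvate carrier genes Mpc1 and Mpc2. The others are the plasma membrane monocarboxylate transporter genes Slc16a1, Slc16a3 and Slc16a7, and Bsg, the chaperone gene for the transporters of Slc16a1 and Slc16a3. The genes were listed by name, with earlier results of these data known. All 9 were found among the 57180 gene rows of the expression table, each on 1 row, and all 9 were among the 11753 genes tested.

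RNA was sequenced from wild-type mouse bone marrow-derived macrophages, primary cells that fuse into bone-resorbing osteoclasts when given the right signals. The Visomitin group holds 3 libraries of cells kept 5 days under osteoclast-forming conditions with Visomitin, a plastoquinone antioxidant that accumulates in mitochondria. The control group holds 3 libraries of the same wild-type cells kept 5 days under the same conditions without it. The sources used here do not give the dose, the age and sex of the mice, or whether libraries of a group came from separate mice or cultures. The p-values therefore measure the spread among these libraries only, and that spread may be technical. Values are TPM, a share of the transcripts of a library, which are corrected for gene length but keep no sequencing depth.

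Active L-lactate dehydrogenase is a tetramer of A and B subunits, encoded by Ldha and Ldhb. Tetramers rich in A are the textbook form of glycolytic tissues and those rich in B of oxidative tissues such as heart, although both catalyse the reaction in either direction. Lactate leaves and enters cells with a proton through monocarboxylate transporters, and pyruvate enters mitochondria through a carrier built from the products of Mpc1 and Mpc2. Osteoclasts are rich in mitochondria and also use glycolysis, and the title of the study names LDHB together with STAT3.

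The labelled cell state was checked against marker genes. All 10 osteoclast markers fell with Visomitin, and their summed level was 2965 to 3569 TPM in Visomitin libraries and 11150 to 12110 TPM in control libraries. With no filter on low values, and likewise without control 1, 9 of the 10 passed. Of 8 tested macrophage and monocyte markers, 2 rose, Mrc1 and Cx3cr1. That count was 0 without Visomitin 2, 1 without any 1 control or with no filter on low values, and 5 with array weights. The summed level of the 10 genes was 41770 to 46950 TPM with Visomitin and 36120 to 40440 TPM in controls. Most of that sum was Lyz2, at 38065 to 42065 TPM with Visomitin and 32021 to 36284 TPM in controls. Lyz2 did not pass (0.21, limma adjusted p = 0.18). Cd68 was the only tested marker of this list with a difference below 0 (-0.20, limma adjusted p = 0.16). Stromal and osteoblast markers summed to 80.6 to 166 TPM with Visomitin and 112 to 328 TPM in controls, with 0 of 6 tested members passing and Bglap listed at 0. Neutrophil markers, almost all of it S100a8, summed to at most 15.3 TPM with Visomitin and 19.5 TPM in controls, with 6 of 8 genes listed at 0. Dendritic cell, lymphocyte and erythroid markers each summed to at most 2.37 TPM in any library, with Cd209a, Cd3e, Hba-a1 and Hbb-bs among those listed at 0. The lymphocyte sum was 1.16 to 2.37 TPM with Visomitin and 0.38 to 0.58 TPM in controls, with 0 of its 8 genes tested. The part of these cell types in the results below was not tested. On the second principal component Visomitin 1 stood apart at 25.1, against -17.2 and -16.8 for Visomitin 2 and Visomitin 3.

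Of the 9 genes, 3 fell with Visomitin, 0 rose and 6 did not pass the test (limma, Benjamini-Hochberg adjusted p under 0.05). Over all tested genes, 7.10% passed, 5.03% lower and 2.08% higher. The genes that fell, in order of size, were Ldhb, Slc16a7 and Mpc2. The median difference of the 9 genes was -0.33 on the log2(TPM + 1) scale, beside -0.03 for all tested genes; with a filter at a mean of 5 TPM, which leaves 7 of the 9, it was -0.006, beside -0.03 for all genes. The groups did not overlap for 4 of the 9 genes, the 3 called and Ldhd, and for 30.4% of all tested genes.

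**Figure D1:**
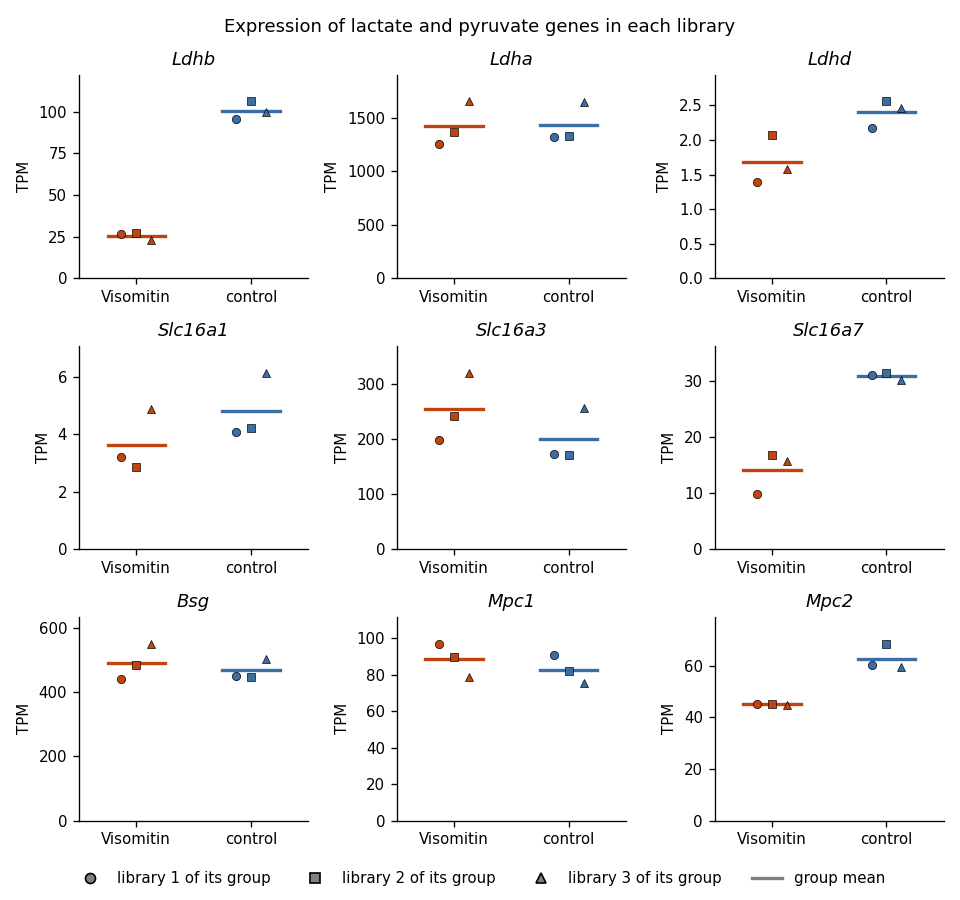
TPM of each of the 9 genes in each library, with Visomitin left of control, every y axis starting at 0, a symbol per library and a bar at the group mean. Ldhb, Ldhd, Slc16a7 and Mpc2 are the genes whose groups do not overlap, and Ldha, Slc16a1, Slc16a3 and Bsg are highest in library 3 of each group.

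**Figure D2:**
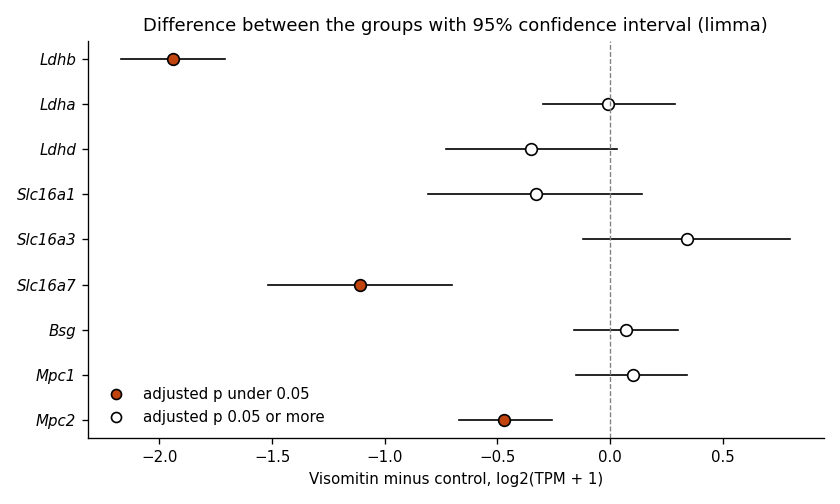
Difference of each gene, Visomitin minus control on the log2(TPM + 1) scale, with limma's 95% confidence interval; filled points passed an adjusted p of 0.05. The intervals of Ldhb (-2.17 to -1.71), Slc16a7 (-1.52 to -0.70) and Mpc2 (-0.67 to -0.26) lie below 0, and the other 6 include it.

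Ldhb (ENSMUSG00000030246, chromosome 6), the B subunit gene, was at 26.7, 27.3 and 22.6 TPM in Visomitin libraries 1 to 3, against 95.7, 106 and 99.9 TPM in control libraries 1 to 3. The groups were far apart, with the highest Visomitin library well under the lowest control. The means were 25.5 ± 2.55 TPM with Visomitin and 101 ± 5.28 TPM in controls (SD, n = 3 each), a log2 difference of -1.94 (SE 0.10, limma adjusted p = 3.03e-05). Among the 11753 tested genes the difference of Ldhb ranked 38 from the lowest. In bulk RNA, fewer cells of a type and less RNA per cell cannot be told apart, and the osteoclast markers given above fell beside Ldhb, with a median log2 difference of -1.99 over the 10 genes.

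Ldha (ENSMUSG00000063229, chromosome 7), the A subunit gene, was at 1251, 1370 and 1653 TPM with Visomitin, against 1317, 1325 and 1645 TPM in controls. The groups overlapped almost completely, and library 3 was the highest of each group. The log2 difference was -0.01, with a 95% confidence interval of -0.30 to 0.29 (limma adjusted p = 0.98), and its sign turned under median-ratio scaling (0.03). The interval excludes a difference of the size seen for Ldhb.

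The balance of the subunits differed between the groups. Within each library, Ldhb made up 2.09%, 1.96% and 1.35% of the summed Ldha and Ldhb TPM with Visomitin, against 6.77%, 7.42% and 5.73% in controls. All 3 Visomitin libraries had a lower share than every control, at 1.80 ± 0.393% with Visomitin and 6.64 ± 0.856% in controls (SD, n = 3 each). An exact permutation test, two-sided over the 20 possible assignments, gave p = 0.10, the smallest that 3 against 3 libraries allow. For each TPM of Ldhb there were 46.9, 50.1 and 73.1 TPM of Ldha with Visomitin, against 13.8, 12.5 and 16.5 TPM in controls. Such a ratio within a library does not depend on scaling between libraries. The sum of both genes was 1278 to 1676 TPM with Visomitin and 1413 to 1745 TPM in controls, ranges that overlap.

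**Figure D3:**
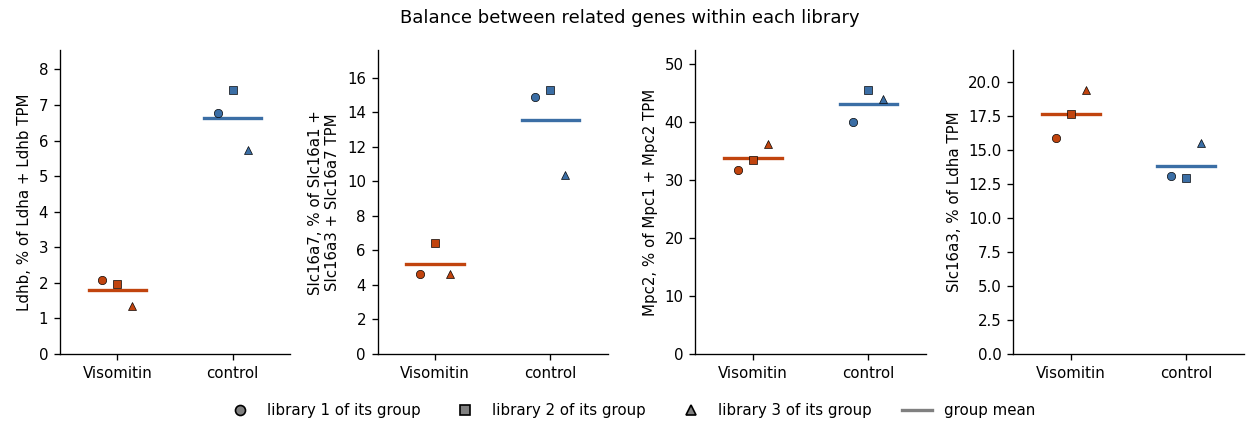
Balance between related genes within each library, as percent of TPM, with Visomitin left of control, a symbol per library and a bar at the group mean. The share of Ldhb in Ldha plus Ldhb, of Slc16a7 in the 3 transporter genes and of Mpc2 in Mpc1 plus Mpc2 is lower in every Visomitin library than in any control, and Slc16a3 as a percent of Ldha is higher in every Visomitin library.

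Ldhd (ENSMUSG00000031958, chromosome 8) encodes a mitochondrial enzyme that oxidises D-lactate, the mirror-image form. It was the lowest of the 9 genes in both groups, at 1.39, 2.07 and 1.58 TPM with Visomitin, against 2.17, 2.56 and 2.47 TPM in controls. The groups did not overlap, by a margin of 2.07 to 2.17 TPM, but the difference did not pass (-0.35, 95% confidence interval -0.73 to 0.03, limma adjusted p = 0.24). Its value is uncertain, because exons of Znrf1 (46.1 to 57.0 TPM) overlap it on the opposite strand and the sources used here do not say whether reads were counted by strand. Of the other lactate dehydrogenase-like genes, Ldhc, the testis form, was listed at 0 in all libraries. Uevld, which carries a domain related to lactate dehydrogenase, was at 12.1, 12.1 and 9.88 TPM with Visomitin, against 9.50, 7.37 and 7.24 TPM in controls, and did not pass (0.46, limma adjusted p = 0.099).

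The promoters of the subunit genes and of Slc16a3 are shown because the title of the study pairs LDHB with STAT3, and because Ldha and Slc16a3 are textbook targets of hypoxia-inducible factor. Each is the stretch of 250 bases before the RefSeq start on build GRCm38.p6, written 5′ to 3′ along the gene, at chr6:142507958-142508207 on the minus strand for Ldhb, chr7:46845554-46845803 on the plus strand for the upstream start of Ldha and chr11:120948817-120949066 on the plus strand for Slc16a3. Capitals mark ACGTG or GCGTG, the core letters of the hypoxia response element, read on either strand.
Ldhb: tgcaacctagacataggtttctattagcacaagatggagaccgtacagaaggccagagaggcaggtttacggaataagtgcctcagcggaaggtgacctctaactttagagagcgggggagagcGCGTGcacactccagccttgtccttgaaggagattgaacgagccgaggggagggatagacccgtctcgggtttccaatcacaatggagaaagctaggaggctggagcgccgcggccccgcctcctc
Ldha: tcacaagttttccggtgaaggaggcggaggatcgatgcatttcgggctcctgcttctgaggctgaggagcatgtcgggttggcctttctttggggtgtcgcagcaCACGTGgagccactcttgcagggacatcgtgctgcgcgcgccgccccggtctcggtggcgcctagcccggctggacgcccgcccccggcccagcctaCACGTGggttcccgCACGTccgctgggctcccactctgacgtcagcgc
Slc16a3: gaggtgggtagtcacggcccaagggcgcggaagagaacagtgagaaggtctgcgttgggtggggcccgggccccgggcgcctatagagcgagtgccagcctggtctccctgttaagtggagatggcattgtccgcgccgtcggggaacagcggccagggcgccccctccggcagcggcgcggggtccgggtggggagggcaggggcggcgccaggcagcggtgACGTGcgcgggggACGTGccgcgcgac

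The motif ACGTG stood at 3 separate places in the Ldha window, starting 145, 48 and 34 bases before the start, of which the ones at 145 and 48 read ACGTG on both strands (overlapping matches). Slc16a3 held it at 2 places, 27 and 14 bases before the start, and Ldhb held only GCGTG, at 126 bases. ACGTG also stood in the windows of Ldhd, at 139 bases, and of Slc16a1, at 200 bases, which also had GCGTG at 149 and 134 bases. The window of the other Ldha start held only GCGTG, at 59 bases, as did a window of Mpc1 and that of Mpc2, at 242 bases each, and the other Mpc1 window held neither. Of 32851 promoter windows of that length, 16.6% hold ACGTG and 28.2% hold GCGTG on either strand. The palindromic letters TTCNNNGAA, a form bound by STAT proteins, were not in any of the 9 windows of the 7 genes that have one, beside 7.02% of all windows. Slc16a7 and Bsg were not among those 7. Neither AAGGTCA, a site of estrogen-related receptors (4.08% of windows), nor TGANTCA, an AP-1 site (6.75%), was in them. A match describes letters and not a bound site, and these windows say nothing about sequence farther away.

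The plasma membrane transporters differed in level, and Slc16a7 was the only gene of the 3 that passed the test. Slc16a3 (ENSMUSG00000025161, chromosome 11) encodes MCT4, a transporter with low substrate affinity known for lactate export from glycolytic cells, and was the most abundant of the 3 transporter genes. It was at 199, 241 and 320 TPM with Visomitin, against 172, 170 and 255 TPM in controls. The groups overlapped through control 3, and the difference did not pass (0.34, 95% confidence interval -0.12 to 0.80, limma adjusted p = 0.35). In no alternative did it pass, with limma adjusted p from 0.052 with a block for the library number to 0.64 without Visomitin 3. Set against Ldha in the same library, a ratio chosen after the values were seen, Slc16a3 was at 15.9%, 17.6% and 19.4% with Visomitin and 13.1%, 12.9% and 15.5% in controls, with no overlap.

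Slc16a7 (ENSMUSG00000020102, chromosome 10) encodes MCT2, a transporter with high affinity for pyruvate and lactate. It was at 9.86, 16.8 and 15.7 TPM with Visomitin, against 31.0, 31.5 and 30.2 TPM in controls. Control libraries lay close together and every Visomitin library lay well below them, Visomitin 1 lowest. The log2 difference was -1.11 (SE 0.18, limma adjusted p = 0.010), and it ranked 163 from the lowest among all tested genes. Without Visomitin 1 it was -0.89, and the call was lost when no filter on low values was applied (adjusted p = 0.056).

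Slc16a1 (ENSMUSG00000032902, chromosome 3) encodes MCT1, the widespread transporter of intermediate affinity, and was low here. It was at 3.19, 2.86 and 4.87 TPM with Visomitin, against 4.08, 4.23 and 6.14 TPM in controls. The groups overlapped and the difference did not pass (-0.33, 95% confidence interval -0.81 to 0.14, limma adjusted p = 0.37).

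The makeup of the 3 transporter transcripts differed between the groups. Slc16a3 made up 93.8%, 92.5% and 94.0% of their summed TPM with Visomitin, against 83.1%, 82.7% and 87.5% in controls. Slc16a7 made up 4.66%, 6.45% and 4.61% with Visomitin, against 14.9%, 15.3% and 10.4% in controls, and Slc16a1 at most 1.51% with Visomitin and 2.10% in controls. For each of these shares the groups did not overlap. The shares are parts of the same sum, so they are not separate results, and they were not tested. The TPM of Slc16a1 alone overlapped between the groups. For comparison, groups did not overlap in TPM for 30.4% of all tested genes. The sum of the 3 genes, at 212 to 340 TPM with Visomitin and 206 to 292 TPM in controls, did overlap.

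Bsg (ENSMUSG00000023175, chromosome 10) encodes basigin, the glycoprotein that brings MCT1 and MCT4 to the cell surface. It was at 439, 484 and 550 TPM with Visomitin, against 450, 448 and 502 TPM in controls. The groups overlapped, with a log2 difference of 0.07 (95% confidence interval -0.16 to 0.30, limma adjusted p = 0.72), whose sign turned without Visomitin 3 (-0.02). Bsg stood at 1.61 to 2.07 TPM for each summed TPM of the 3 transporter genes with Visomitin and at 1.72 to 2.17 TPM in controls. Emb, for embigin, the partner of MCT2, was picked once its values were known. It was at 167, 170 and 145 TPM with Visomitin, against 166, 154 and 127 TPM in controls, and did not pass (0.11, limma adjusted p = 0.61).

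Of 15 other monocarboxylate carriers and partners, 6 were tested and 0 passed, with a median log2 difference of -0.22. The largest differences by p-value were those of Slc16a6 (-0.39, limma adjusted p = 0.089), a carrier shown in zebrafish to export ketone bodies, and Slc16a10 (-0.23, adjusted p = 0.23), an aromatic amino acid carrier. Slc16a13 was at 4.19, 11.2 and 5.93 TPM with Visomitin, against 18.1, 5.64 and 21.2 TPM in controls, which varied widely. It did not pass (-0.89, limma adjusted p = 0.29) and did without control 2 (-1.44, adjusted p = 0.043). The sodium-coupled carriers Slc5a8 and Slc5a12 were listed at 0 in all libraries.

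Of the subunits of the mitochondrial pyruvate carrier, Mpc2 fell and Mpc1 did not pass. Mpc2 (ENSMUSG00000026568, chromosome 1) was at 45.0, 45.2 and 44.7 TPM with Visomitin, against 60.2, 68.5 and 59.4 TPM in controls. The Visomitin libraries were nearly level and all under the lowest control. The log2 difference was -0.47 (SE 0.09, limma adjusted p = 0.020). The call was lost without Visomitin 2 (adjusted p = 0.074), without control 1 (adjusted p = 0.067) and without control 2 (adjusted p = 0.082), with differences of -0.47, -0.49 and -0.40 in that order; such fits have fewer libraries and so less power.

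Mpc1 (ENSMUSG00000023861, chromosome 17), its obligate partner in the carrier, was at 96.9, 89.9 and 78.8 TPM with Visomitin, against 90.6, 81.9 and 75.5 TPM in controls. The groups overlapped, and the difference did not pass (0.10, 95% confidence interval -0.15 to 0.34, limma adjusted p = 0.63). The interval lies above that of Mpc2, and the ratio within libraries separated the groups: 2.15, 1.99 and 1.76 TPM of Mpc1 for each TPM of Mpc2 with Visomitin, against 1.51, 1.20 and 1.27 in controls. Mpc2 thus made up 33.8 ± 2.24% of the sum with Visomitin and 43.2 ± 2.90% in controls (SD, n = 3 each). The ratio and the share were not tested.

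Ordered by level, the 9 genes ran from Ldha through Bsg and Slc16a3 to Slc16a1 and Ldhd in both groups. Ldhb ranked 6 with Visomitin, below Mpc1 and Mpc2 and above Slc16a7, while in controls it ranked 4, above Mpc1. In no group did the ranges of neighbours in the order overlap. Processed pseudogenes that share at least 20% of their 30-base words with these genes were low: Gm5514, a copy of Ldhb with 55.4% shared, reached 0.10 TPM, Mpc1-ps with 90.0% was listed at 0, and Gm9247, a copy of Ldha with 26.4%, reached 0.63 TPM. The sources used here do not say how reads shared with such copies were assigned.

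Some enzymes that oxidise or make pyruvate fell beside these genes. The list of pyruvate oxidation and carboxylation had 16 tested genes with a median log2 difference of -0.18, of which 4 fell and 0 rose. Pdha1 and Pdhb, the subunits of the decarboxylase of the pyruvate dehydrogenase complex, had differences of -0.45 (limma adjusted p = 0.018) and -0.43 (adjusted p = 0.025). Pdha1 was at 57.0, 60.0 and 60.1 TPM with Visomitin, against 85.8, 81.0 and 76.2 TPM in controls. Me1, the cytosolic malic enzyme that makes pyruvate from malate, was at 11.3, 14.6 and 13.2 TPM with Visomitin, against 20.8, 21.4 and 23.0 TPM in controls (-0.70, limma adjusted p = 0.012). The 4th was Dlat, the acetyltransferase of the complex (-0.38, limma adjusted p = 0.043), a gene picked out once its values were known. The count was 5 without Visomitin 1, 1 without Visomitin 2, control 1 or control 2, 2 without Visomitin 3 and 3 without control 3, and it was 2 with no filter on low values and 2 with no trend. The call of Pdhb was lost with no filter (adjusted p = 0.056), with no trend (0.060) and without each library other than Visomitin 1 (up to 0.094), and that of Pdha1 without Visomitin 2, control 1 or control 2 (up to 0.085). The pyruvate dehydrogenase kinases Pdk1, Pdk2 and Pdk3 did not pass (limma adjusted p of 0.55 to 0.73).

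Shuttles that reoxidise cytosolic NADH, as the reduction of pyruvate to lactate also does, showed 3 lower genes of 10 tested, 0 higher and a median of -0.29. These were the malate dehydrogenases Mdh2 (-0.95) and Mdh1 (-0.58) and the mitochondrial aspartate-glutamate carrier Slc25a13 (-0.68, limma adjusted p = 0.0058). Slc25a13 was at 12.5, 12.7 and 13.7 TPM with Visomitin, against 20.8, 21.5 and 21.9 TPM in controls. The 3 calls were kept whichever library was left out.

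Glucose uptake and glycolysis had 21 tested genes with a median of 0.15, of which 1 rose and 0 fell. The gene that rose was the aldolase gene Aldoc (0.48, limma adjusted p = 0.031), whose call was lost with no filter on low values (adjusted p = 0.060) and without each library other than Visomitin 1. Pgk1 (0.34, adjusted p = 0.051) and Gapdh (0.28, adjusted p = 0.058), both enzymes of the payoff phase, did not pass in limma. Pgk1 passed in 5 alternatives (limma adjusted p of 0.011 to 0.043) and Gapdh in 3 (0.0077 to 0.042). The fit without Visomitin 1 was among them for both (adjusted p = 0.036 for Pgk1 and 0.042 for Gapdh). In the other alternatives adjusted p reached 0.16 for Pgk1 and 0.37 for Gapdh. Leaving out Visomitin 1 gave 3 genes that rose, and leaving out Visomitin 2, Visomitin 3, control 1 or control 2 gave 0.

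Of 5 genes handling methylglyoxal and D-lactate, 1 fell and 4 did not pass, with a median of -0.12. Hagh, the glyoxalase that releases D-lactate, was at 76.6, 113 and 96.5 TPM with Visomitin, against 155, 172 and 133 TPM in controls (-0.69, limma adjusted p = 0.032). The groups did not overlap, but the call was lost without Visomitin 3 (adjusted p = 0.054), control 1 (0.10) or control 2 (0.082), with no filter on low values (0.11) and with no trend (0.061). Glo1, the enzyme before it, did not pass (-0.17, limma adjusted p = 0.25), nor did Pnkd (-0.11, adjusted p = 0.53).

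Among 12 tested regulators known for a link to lactate dehydrogenase genes, 1 rose, 1 fell and 10 did not pass, with a median of 0.17. Ppargc1b, a coactivator of oxidative metabolism whose relative PGC-1α raises Ldhb in muscle, was at 6.84, 9.17 and 6.31 TPM with Visomitin, against 17.7, 15.2 and 15.7 TPM in controls (-1.04, limma adjusted p = 0.0059). Its partner nuclear receptor Esrra did not pass (-0.28, adjusted p = 0.16), and Ppargc1a was listed at 0. Egln3, a prolyl hydroxylase induced by hypoxia-inducible factor, rose to 4.90, 4.36 and 7.36 TPM with Visomitin, against 1.60, 1.98 and 3.20 TPM in controls (1.01, limma adjusted p = 0.040), a call lost without each library other than control 3 (adjusted p up to 0.12), with no filter (0.15) and with no trend (0.050). Hif1a (0.17, limma adjusted p = 0.47) and Stat3 (0.23, adjusted p = 0.19), both transcription factor genes, did not pass. With array weights 4 regulators rose and 2 fell, Stat3 (limma adjusted p = 0.018) and Esrra (adjusted p = 0.044) among them. That setting passed 2835 of all tested genes, against 835 without weights.

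**Figure D4:**
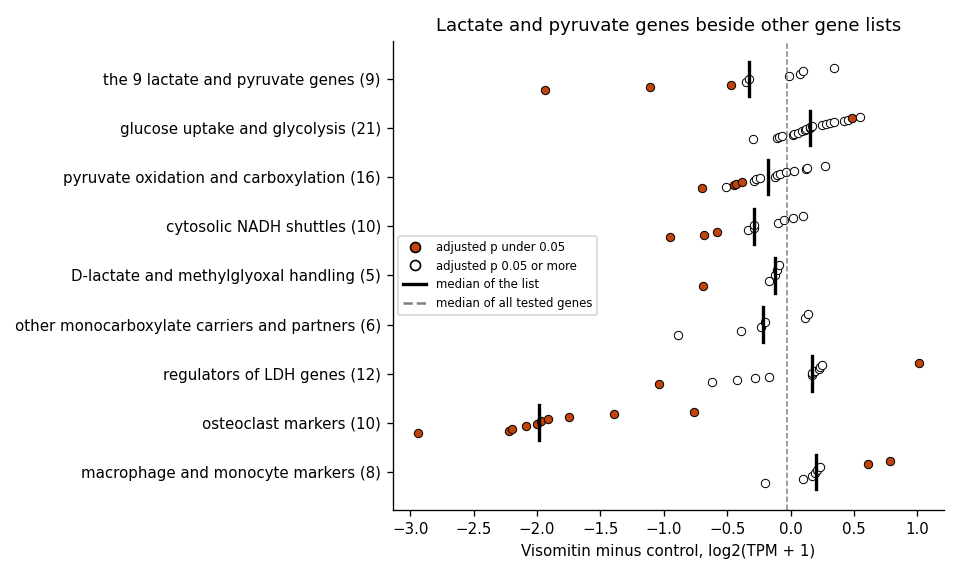
Difference of each tested gene, Visomitin minus control on the log2(TPM + 1) scale, for the 9 lactate and pyruvate genes and 8 other lists, with the number of tested genes in brackets; filled points passed an adjusted p of 0.05, the bar is the median of a list and the dashed line the median of all tested genes (-0.03). The 10 osteoclast markers lie between -2.94 and -0.76, and the glycolysis genes between -0.30 and 0.55.

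The genes whose profile over the 6 libraries was most like that of Ldhb were Ctsk, the collagen-degrading cathepsin of osteoclasts, Ndufs7, a subunit of respiratory complex I, and Klhl12, an adaptor of a ubiquitin ligase (Pearson r of log2(TPM + 1) 0.9980, 0.9976 and 0.9975 among 8567 candidate genes). Their differences were unlike in size, at -2.22 for Ctsk, -0.24 for Ndufs7 and -1.01 for Klhl12. That of Ndufs7 did not pass (limma adjusted p = 0.079). Closest to Ldha were Carm1, an arginine methyltransferase, Ifrd1, a transcriptional coregulator, and Lig1, a DNA ligase (r of 0.9925, 0.9922 and 0.9871), each with a difference between 0.01 and 0.03 and highest in library 3 of each group. Closest to Slc16a7 were St3gal1, a sialyltransferase, Gusb, a lysosomal glucuronidase, and Slc39a13, a zinc transporter (r of 0.9990, 0.9990 and 0.9986). These correlations rest on 6 libraries in 2 groups, which for Ldhb and Slc16a7 lie apart, and are given as a description.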

How the data were processed

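RNA of 3 Visomitin and 3 control libraries was sequenced. The deposited values are TPM per gene, which the authors computed within each library; per the submitters' processing notes fastp, HISAT2 and StringTie were used, with versions, genome build and annotation not given in the sources used here. Per the labels, libraries were made with a stranded mRNA kit. TPM keep no counts or depth, so the number of libraries limits the precision.

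A table of gene names gave symbols for 51884 of 57180 identifiers. The 11753 genes that reached 1 TPM in 3 or more libraries were transformed to log2(TPM + 1) and fitted with limma 3.58.1 (R 4.3.3, eBayes with trend, group as the only term). Tests are two-sided with Benjamini-Hochberg adjustment over all tested genes at 0.05. Folds on this scale understate the change of low genes. On simulated data of 11753 genes for this comparison, 77.6% of genes changed 2-fold and 44.8% of those changed 1.5-fold were recovered. The simulation drew the noise of each gene independently and changed fewer genes than passed here, so recovery in the real data may differ.

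The members, gene lists, tests and alternatives were chosen with earlier results of these data known. Named are the 9 genes, up to 3 genes with the lowest p-values of each pathway list, Ctsk, Acp5, Stat3, and the 3 genes of at least 5 TPM most correlated with Ldhb, Ldha and Slc16a7; other genes in the text were picked once their values were known. The alternatives were pseudocounts of 0.1 and 5, other filters, median-ratio scaling, quantile normalization, no trend, array weights, a block for the library number, and each library left out. Promoter sequences are RefSeq's (GRCm38.p6); chromosomes are those of the GENCODE annotation of GRCm38. Exact tests used scipy 1.17.1.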

Additional observations from a re-analysis of the deposited data

How the results depend on the processing

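Over the alternatives tried, Ldhb kept its call and its direction in every fit, with log2 differences of -1.99 to -1.79. Slc16a7 lost its call with no filter on low values (adjusted p = 0.056) and Mpc2 in the 3 fits without 1 library named in the report. The count of called members was 2 to 3 of 9 with a library left out. The difference in the Ldhb share was -5.30 to -4.45 percentage points with a library left out, beside -4.84 with all. Ldha changed sign under median-ratio scaling (0.03) and with array weights (0.03), and ranged from -0.12 to 0.10 with a library left out; without a library Bsg ranged from -0.02 to 0.15, Carm1 from -0.12 to 0.18, Ifrd1 from -0.10 to 0.12 and Lig1 from -0.14 to 0.11. The median over the members was -0.407 with a pseudocount of 0.1, -0.149 with a pseudocount of 5, -0.006 with the filter at a mean of 5 TPM, -0.198 with array weights and -0.176 without control 3, against -0.333. The filter at a mean of 5 TPM leaves out Slc16a1 and Ldhd.

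Over all genes, 835 passed, 591 lower and 244 higher, against 381 with no filter, 2835 with array weights, and 299 to 983 with a library left out. The lower share was 70.8%, and 60.2% after median-ratio scaling, 53.8% after quantile normalization and 55.4% with array weights. The labels do not pair libraries, and same-numbered libraries had residual correlations of 0.046, 0.0197 and 0.173; a replicate block for that number gave 1107 genes and 3 members that passed. The block changed no call among the 9 members, and Pgk1 passed under it (adjusted p = 0.038). With array weights, counts per gene list were 7 higher and 1 lower for glycolysis (1 and 0 without weights), 1 higher and 6 lower for pyruvate oxidation (0 and 4), 0 and 5 for the NADH shuttles (0 and 3), 0 and 2 for D-lactate handling (0 and 1), 4 and 2 for the regulators (1 and 1), and 5 and 0 for macrophage and monocyte markers (2 and 0). For the other named genes, of 449 refitted values 42 lost a call, 16 gained 1 and 9 changed sign. Uevld, Slc16a6, Glo1, Esrra and Stat3 passed only with array weights (limma adjusted p of 0.018 to 0.044). The causes of these shifts were not tested, and each fit without a library has fewer degrees of freedom.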

Other observations

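Ldhb was also set against the osteoclast genes Ctsk, for cathepsin K, and Acp5, for tartrate-resistant acid phosphatase, within each library, ratios chosen after the values were seen. Ldhb was at 3.89%, 4.19% and 3.62% of Ctsk TPM with Visomitin, against 3.38%, 3.25% and 3.29% in controls, a narrow gap without overlap. Against Acp5 it was at 2.82%, 2.55% and 2.23% with Visomitin, against 2.38%, 2.39% and 2.26% in controls, and the groups overlapped. Slc16a7 was at 1.44%, 2.58% and 2.51% of Ctsk with Visomitin, against 1.10%, 0.963% and 0.995% in controls, with no overlap. The log2 differences were -1.94 for Ldhb and -1.11 for Slc16a7, beside -2.22 for Ctsk and -2.09 for Acp5. Of the other osteoclast markers, Mmp9 (-1.39), Atp6v0d2 (-1.75), Ocstamp (-1.91) and Nfatc1 (-0.76) fell less than Ldhb. Dcstamp (-2.94), Calcr (-2.2), Itgb3 (-2.0) and Oscar (-1.97) fell more. Nfatc1 also fell less than Slc16a7. The ratios to Ctsk and Acp5 were not tested, and none was taken to the other markers.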
